A study of Mus musculus with 11 samples.

Results

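The genes described here are 9 immediate early response genes of the mouse, Fos, Fosl1, Jun, Junb, Atf3, Egr1, Klf6, Ier2 and Ier3. They were given as a list of genes known to respond early to serum and stress, by a rule that uses no measured value, although the list was drawn up with earlier results of these data known, and were found by symbol among the 54838 Ensembl gene rows of each count table. All 9 were found, and all 9 were among the 16073 genes that were tested, those above 1 CPM (reads of a gene relative to the gene reads of its library) in 4 or more of the 11 libraries. RNA was sequenced from E14 cells, an established line of mouse embryonic stem cells (ESCs), to ask how transcript levels change when the cap methyltransferase CMTR1 is lowered by short interfering RNA (siRNA). The 3 groups were a control scramble siRNA (3 libraries), CMTR1 siRNA 1 (4 libraries) and CMTR1 siRNA 2 (4 libraries), each collected 36 h after transfection. All groups were grown on gelatin in medium with Knockout Serum Replacement and leukaemia inhibitory factor (LIF). The labels name no serum or stress stimulus for any group, so the values are levels in cells given no named stimulus. According to the methods, freshly seeded cells were transfected with Lipofectamine RNAiMAX and the medium was later replaced. Whether this handling or the harvest moved these genes was not tested. The methods state 3 biological replicates, while each CMTR1 siRNA has 4 libraries, and the labels do not say which came from separate cultures. The p-values therefore measure the spread between these libraries.

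Immediate early genes are transcribed within minutes of a growth factor, serum or stress signal, by regulatory proteins that are already in the cell. The signal reaches them mainly through the MAP kinase chain, which phosphorylates the ternary complex factors that sit beside serum response factor, and through cyclic AMP response element binding protein. Most of their mRNAs are short-lived, and many of their products are transcription factors: FOS and JUN proteins pair through leucine zippers to form AP-1, ATF3 pairs with JUN proteins, and EGR1 and KLF6 bind GC-rich DNA through zinc fingers. CMTR1 methylates the ribose of the first transcribed nucleotide next to the mRNA cap, so it acts at the base where a transcript starts. The starts given below are annotated ones, and those used in these cells were not measured.

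RefSeq promoter entries of GRCm38.p6 were at hand for 6 of the 9 genes, Fos, Jun, Junb, Atf3, Klf6 and Ier3. That of Atf3 (191183334 to 191183583, minus strand) lies inside the annotated gene, which ends at 191218039. It is therefore not the outermost annotated start of Atf3. The first base of the RefSeq transcript was A for Fos, C for Atf3, G for Jun and Klf6, and T for Junb and Ier3, while over all 32851 promoters in the table it was A in 34.36%, C in 16.32%, G in 35.59% and T in 13.72%. The 100 bases before the start of 4 of them are shown, because these 4 include both FOS and JUN genes and the zinc finger gene with the steadiest level, and because the core promoter letters differ between them. Capitals mark the GC box GGGCGG or its complement CCGCCC, and the TATA box TATAAA. The windows, 5′ to 3′ on the coding strand, are chr12:85473790-85473889 (plus strand) for Fos, chr4:95052223-95052322 (minus strand) for Jun, chr8:84978749-84978848 (minus strand) for Junb and chr13:5861389-5861488 (plus strand) for Klf6.
Fos: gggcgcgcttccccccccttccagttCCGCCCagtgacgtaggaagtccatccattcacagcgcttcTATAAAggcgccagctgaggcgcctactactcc
Jun: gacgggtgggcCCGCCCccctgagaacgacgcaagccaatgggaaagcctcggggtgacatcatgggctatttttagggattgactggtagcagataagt
Junb: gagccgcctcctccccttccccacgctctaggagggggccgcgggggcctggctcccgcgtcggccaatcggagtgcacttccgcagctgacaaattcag
Klf6: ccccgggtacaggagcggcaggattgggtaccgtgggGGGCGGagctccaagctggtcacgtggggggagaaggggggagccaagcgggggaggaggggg

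Both strands of the 250 bases before each start were searched for 6 motifs. The GC box was found in 5 of the 6 promoters, all but Junb, against 32.742% of all promoters, and Atf3 held several copies of it, of which 2 overlapped. The TATA box was found only in Fos, at -33 to -28 from the start (the base before the start is -1), against 12.368% of all promoters. The CArG box bound by serum response factor (1.467% of all promoters), the cyclic AMP response element TGACGTCA (1.546%), the AP-1 site TGANTCA (6.749%) and the EGR site GCGNGGGCG (4.697%) were in none of the 6 windows as spelled here. This says only that these exact letters are not in these windows.

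Gene reads ran from 6738478 to 8382318 per library, and in the 10 tables with summary lines 46.5% to 51.1% of the listed reads lay outside gene rows. Cmtr1, the gene both siRNAs target, was at 21.3, 21.7 and 17.9 CPM in control, at 21.1, 21.3, 16.2 and 18 with siRNA 1 and at 15.6, 16.8, 16.4 and 19.5 with siRNA 2. These ranges overlapped, and the fitted log2 fold changes of -0.09 (SE 0.11, adjusted p = 0.743) and -0.25 (SE 0.11, adjusted p = 0.144, edgeR quasi-likelihood test) did not pass, so the groups are named by their labels and the counts by themselves do not show the knockdown. The span of Cmtr1 overlaps Gm28052 and Gm28043 on the same strand, so its own reads may be undercounted. The study states that CMTR1 falls rapidly after CMTR1 siRNA transfection, and lists western blot as a use of both siRNAs. All 10 ESC markers examined were present, at 1812 to 2234 CPM in sum. Of the 10 fibroblast markers, which would mark feeder cells, Postn and Lum stayed under 1 CPM in every library and none was at 0 throughout.

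The first question was whether the immediate early genes differed between cells labelled as treated with a CMTR1 siRNA and control cells. None of the 9 genes passed the test (edgeR quasi-likelihood test, Benjamini-Hochberg adjusted p of 0.05 or less over all genes tested) with either siRNA. With siRNA 1, 0 of 9 were called, where 4.67% of all genes tested were, and with siRNA 2, 0 of 9, where 9.72% of all genes were. DESeq2 and the edgeR exactTest also called 0 of 9 in each. At an unadjusted p under 0.05 there was 1 gene with siRNA 1, Ier3 (16.8% of all genes tested), and there were 2 with siRNA 2, Egr1 and Klf6 (23.2% of all genes). The groups did not overlap in CPM for 0 of 9 genes with siRNA 1 (15.5% of all genes) and for 1 of 9, Klf6, with siRNA 2 (19.4% of all genes). These shares stand near or below those over all genes.

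The fitted log2 fold changes of the 9 genes ran from -0.43 to 0.29 with siRNA 1, with 6 below 0 and 3 above, and their median was -0.05, where that over all genes tested was 0.02. With siRNA 2 they ran from -0.39 to 0.42, with 3 below 0 and 6 above, and their median was 0.09, against 0.03 over all genes. The median size regardless of sign was 0.10 and 0.11 in the members, and 0.11 and 0.13 over all genes. Every one of the 18 intervals against control lay within a 2-fold change in either direction, and 5 of 9 intervals with siRNA 1 and 4 of 9 with siRNA 2 lay within 1.5-fold. The standard errors ran with the reads of a gene, from about 0.06 for Klf6 and Ier2 to about 0.31 for Fos, so the size of difference that could be seen was not the same for each. Both comparisons share the same 3 control libraries. Because RNA was taken from whole cultures, fewer cells expressing a gene and less RNA per cell cannot be told apart.

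**Figure D1:**
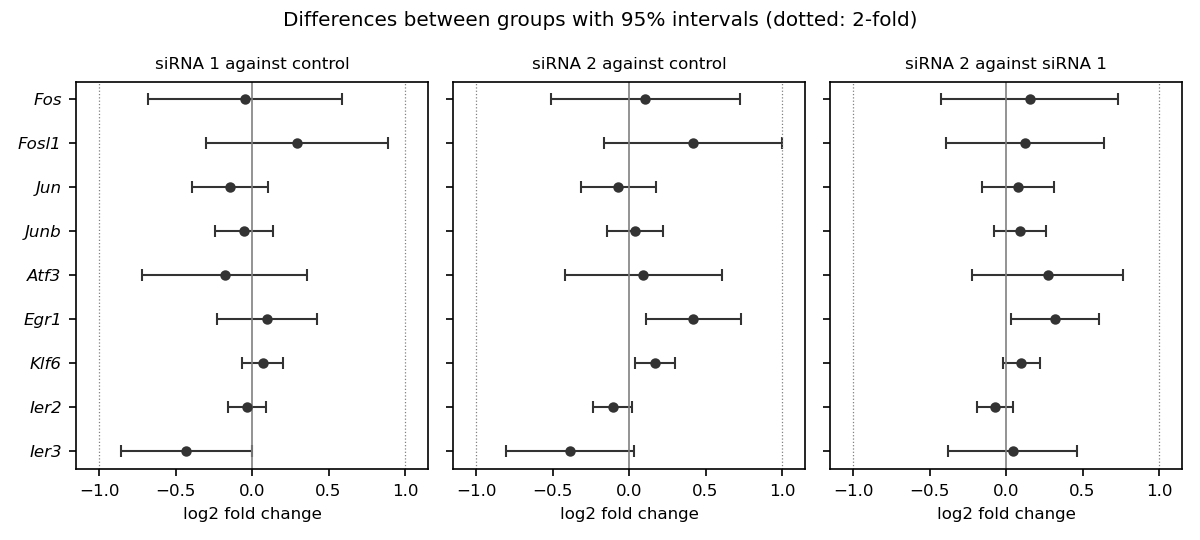
Log2 fold change (x axis) of each of the 9 genes with its 95% interval (horizontal line), for siRNA 1 against control, siRNA 2 against control and siRNA 2 against siRNA 1, with dotted lines at 2-fold. Every interval lies inside the dotted lines, and the intervals of Ier3 (siRNA 1 against control), of Egr1 and Klf6 (siRNA 2 against control) and of Egr1 (siRNA 2 against siRNA 1) lie to one side of 0 before adjustment.

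Comparing the siRNAs with each other, 0 of 9 genes were called (7.44% of all genes tested), also with DESeq2 and the exactTest. Only Egr1 had an unadjusted p under 0.05 (21.1% of all genes), and the groups overlapped for all 9 genes (11.8% of all genes did not overlap). The fitted differences were above 0, higher with siRNA 2, for 8 of 9 genes, with a median of 0.10 on the log2 scale where that over all genes was 0.00, and Ier2 was the exception at -0.07.

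Among the AP-1 genes, Fos (ENSMUSG00000021250; chromosome 12, 85473890 to 85477273, plus strand) encodes the labile FOS subunit and was close to the detection limit. It stood at 1.78, 1.36 and 2.96 CPM in control, at 0.890, 2.12, 1.98 and 2.67 with siRNA 1 and at 1.42, 2.39, 2.97 and 1.85 with siRNA 2. These values rest on 6 to 22 reads per library, and the ranges of the 3 groups overlap. The log2 fold changes were -0.05 (95% interval -0.68 to 0.59) with siRNA 1 and 0.11 (-0.51 to 0.72) with siRNA 2. Fosl1 (ENSMUSG00000024912; chromosome 19, 5447547 to 5455946, plus strand), which encodes the more stable FOS relative FRA1, was at 1.14, 2.10 and 1.75 CPM in control, at 1.93, 1.74, 1.98 and 2.54 with siRNA 1, and at 1.99, 2.86, 2.43 and 1.61 with siRNA 2. All but 1 control value lay within the range of the siRNA libraries. Its log2 fold changes of 0.29 (-0.30 to 0.89) and 0.42 (-0.16 to 1.00) were among the largest of the 9 genes, with adjusted p of 0.682 and 0.400. Of its exon length, 57.21% lies opposite exons of Ccdc85b, which had log2 fold changes of 0.01 and 0.05. The strand setting of the counting is not given in the sources used here, so reads of the 2 genes may not be fully separated.

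Jun and Junb encode the JUN subunits and were far better counted. Jun (ENSMUSG00000052684; chromosome 4, 95049034 to 95052222, minus strand), a gene without introns, was at 12.8, 14.9 and 12.1 CPM in control, at 13.9, 11, 10.4 and 13.0 with siRNA 1, and at 12.8, 12.2, 13.9 and 12.0 with siRNA 2. Its log2 fold changes were -0.15 (-0.40 to 0.10) and -0.07 (-0.32 to 0.17). Junb (ENSMUSG00000052837; chromosome 8, 84974484 to 84978718, minus strand), whose protein can counter JUN at some targets, was at 21.5, 25.7 and 26.6 CPM in control, at 23.3, 25.4, 23.9 and 21.9 with siRNA 1, and at 27.7, 24.6, 25.9 and 23.0 with siRNA 2. Its log2 fold changes were -0.05 (-0.24 to 0.13) and 0.04 (-0.15 to 0.22). For both genes the 3 groups overlapped and the adjusted p-values lay between 0.599 and 0.859. Small parts of their exons lie opposite other genes, 7.28% for Jun (Junos) and 7.52% for Junb (Prdx2).

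Atf3 (ENSMUSG00000026628; chromosome 1, 191170296 to 191218039, minus strand) encodes a leucine zipper factor that many stresses induce. It was at 1.90, 2.71 and 2.56 CPM in control, at 1.93, 1.87, 2.38 and 2.27 with siRNA 1, and at 1.85, 2.74, 3.51 and 2.10 with siRNA 2. The highest value, in siRNA 2 replicate 3, came from 26 reads. The log2 fold changes were -0.18 (-0.72 to 0.36) and 0.09 (-0.42 to 0.61), with adjusted p of 0.804 and 0.875.

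Egr1 (ENSMUSG00000038418; chromosome 18, 34859823 to 34864984, plus strand), the zinc finger factor that links growth factor signals to later target genes, gave the fold change furthest above 0 among the 9. It was at 8.25, 11.1 and 10.9 CPM in control, at 8.76, 9.85, 12.2 and 12.3 with siRNA 1, and at 10.2, 10.6, 14.8 and 18.2 with siRNA 2. Replicates 3 and 4 of each siRNA exceeded every control library, those of siRNA 2 by more, and replicates 1 and 2 of each lay inside the control range. The mean was 10.1 ± 1.59 CPM (SD, n = 3) in control, 10.8 ± 1.75 (n = 4) with siRNA 1 and 13.5 ± 3.76 (n = 4) with siRNA 2. With siRNA 2 the log2 fold change was 0.42 (SE 0.16, 95% interval 0.11 to 0.73, unadjusted p = 0.00972, adjusted p = 0.0786, edgeR), and an exact two-sided permutation test of the same CPM gave p = 0.343. Without siRNA 2 replicate 1 the adjusted p was 0.0325 (log2 fold change 0.52), without replicate 2 it was 0.0323 (0.53), and with no filter on low counts it was 0.0324. Without siRNA 2 replicate 4 the log2 fold change was 0.24 (adjusted p = 0.384), and without control replicate 1 it was 0.29 (0.325). The difference between the siRNAs was 0.32 (0.03 to 0.61, adjusted p = 0.173), and with siRNA 1 the log2 fold change was 0.10 (-0.23 to 0.43, adjusted p = 0.827).

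Klf6 (ENSMUSG00000000078; chromosome 13, 5861482 to 5870394, plus strand), a zinc finger factor of the KLF family, was the only one of the 9 genes whose siRNA 2 and control libraries did not overlap. It was at 49.8, 48.3 and 50.3 CPM in control, at 50.5, 49.4, 52.3 and 55.5 with siRNA 1, and at 53.4, 53.7, 58.1 and 57.0 with siRNA 2. All 4 siRNA 2 libraries lay above all 3 control libraries, and 3 of the 4 siRNA 1 libraries did. The log2 fold change with siRNA 2 was 0.17 (SE 0.06, 0.04 to 0.30), a fold of 1.12, with an adjusted p of 0.0970 (edgeR). The exact two-sided permutation p was 0.0571, which is the smallest that 3 against 4 libraries can give. With siRNA 1 the log2 fold change was 0.07 (-0.06 to 0.20, adjusted p = 0.662).

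Ier2 and Ier3 encode small immediate early proteins, IER2 acting in the nucleus and IER3 in the control of cell survival. Ier2 (ENSMUSG00000053560; chromosome 8, 84661331 to 84662852, minus strand), a gene without introns, was at 83.5, 96.3 and 84.8 CPM in control, at 87.1, 84.4, 94.3 and 79.0 with siRNA 1, and at 83.5, 82.2, 77.1 and 84.6 with siRNA 2. The groups overlapped, and its intervals were among the narrowest, with log2 fold changes of -0.03 (-0.16 to 0.09) and -0.11 (-0.23 to 0.02, adjusted p = 0.292). Ier3 (ENSMUSG00000003541; chromosome 17, 35821684 to 35822923, plus strand) was at 5.84, 3.95 and 3.77 CPM in control, at 3.26, 2.74, 3.04 and 4.41 with siRNA 1, and at 3.84, 3.46, 2.97 and 3.58 with siRNA 2. Most siRNA libraries were below the control libraries, but with either siRNA 1 library lay inside the control range, and control replicate 1 stood above the rest. For siRNA 1 the log2 fold change of Ier3 was -0.43 (SE 0.21, -0.86 to -0.0031, unadjusted p = 0.0484, adjusted p = 0.293), and it was -0.39 (-0.81 to 0.03, adjusted p = 0.262) with siRNA 2. Without control replicate 1 these were -0.20 and -0.16.

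**Figure D2:**
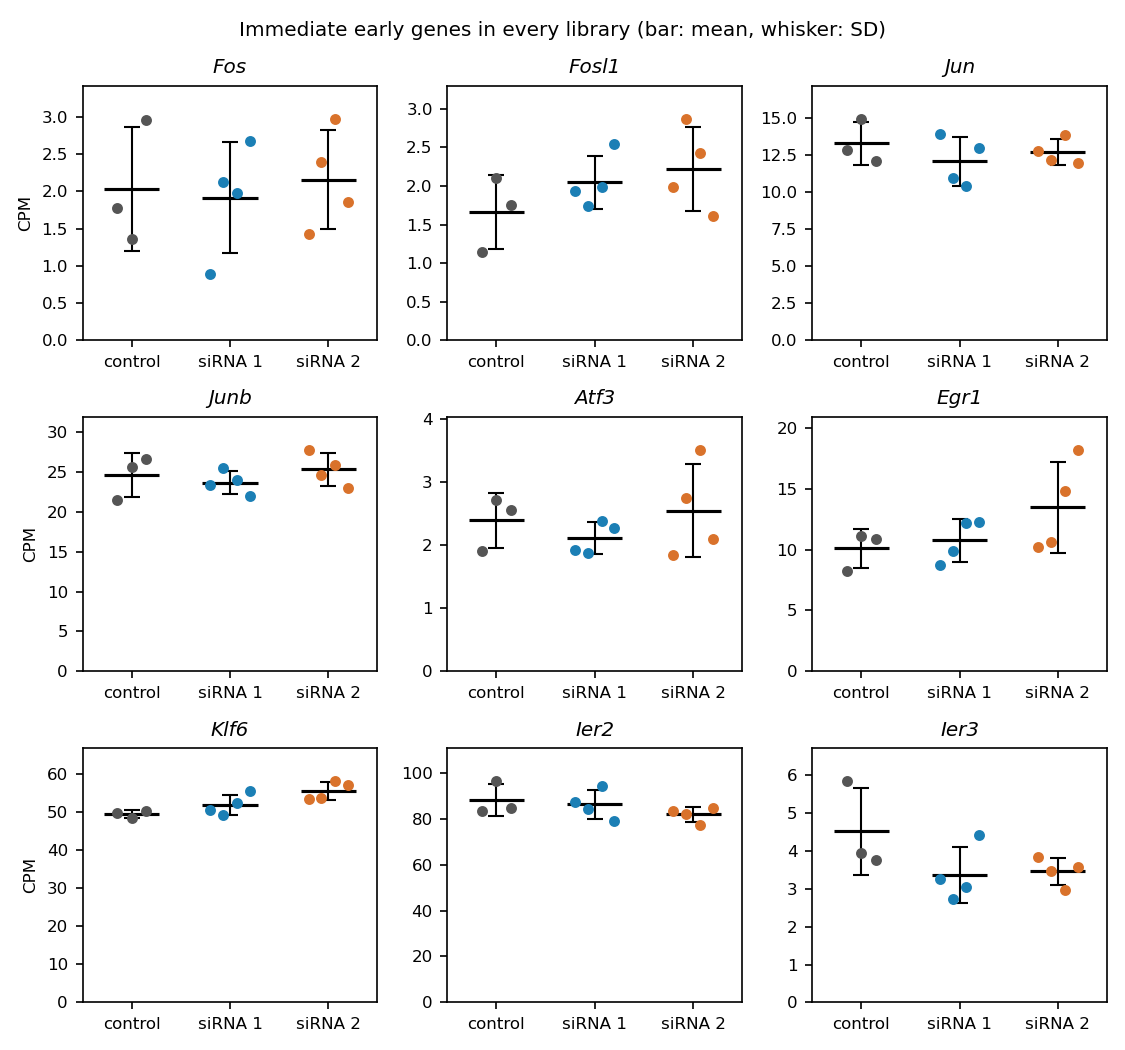
CPM (y axis, from 0) of the 9 genes in each library, grouped by control siRNA (n = 3), CMTR1 siRNA 1 (n = 4) and CMTR1 siRNA 2 (n = 4), with the mean as a bar and the SD as a whisker. The groups overlap in every panel but for Klf6, where the 4 siRNA 2 libraries lie above the 3 control libraries, and Egr1 is spread from 10.2 to 18.2 CPM in siRNA 2.

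Scaled to exon length, the 9 genes covered a wide range of levels in ESCs. Ier2 was highest at 56.0 CPM per kb, in percentile 95.5 of the genes tested, followed by Klf6 at 12.0 and Junb at 10.6. Jun at 3.96, Ier3 at 3.28 and Egr1 at 2.58 CPM per kb followed, and Atf3 at 1.09, Fosl1 at 0.987 and Fos at 0.865 were lowest, Fos in percentile 16.2. Ier2 stood apart from all others in every library. The library ranges of Klf6 (11 to 13.2) and Junb (9.33 to 12.0) overlapped, as did those of Jun (3.27 to 4.68), Ier3 (2.42 to 5.16) and Egr1 (1.84 to 4.05), and those of Atf3 (0.857 to 1.63), Fosl1 (0.562 to 1.41) and Fos (0.379 to 1.26), so the order within each of these sets is not separated by their spread. The levels are per exon length of all annotated isoforms together, not per transcript. Of the genes, 8 (all but Atf3) span under 10 kb, as 23.5% of the 13216 protein-coding genes tested do, and the median span was 4235 bases against 25081.5.

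**Figure D3:**
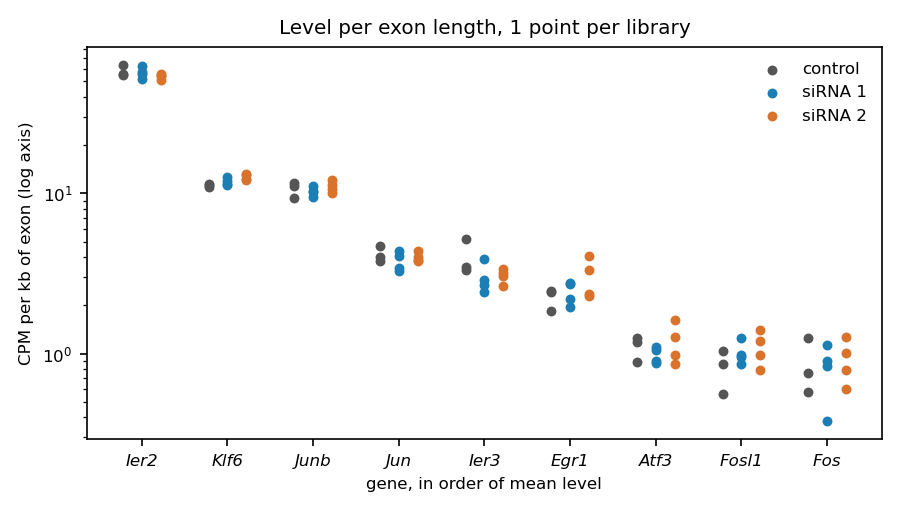
CPM per kb of exon (y axis, log scale) of the 9 genes in order of their mean level, 1 point per library coloured by group. Ier2 lies above all others, and the ranges of Klf6 and Junb, of Jun, Ier3 and Egr1, and of Atf3, Fosl1 and Fos overlap.

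The genes also differed in how much libraries of one group varied beyond counting error. The chi-square of the reads within groups, per degree of freedom (1 when only counting error is present), was 4.34 for Egr1, 2.83 for Ier2 and 1.98 for Fos. It lay between 0.721 (Klf6) and 1.31 (Junb) in the other 6, and its median over all genes tested was 1.28. This measure grows with the number of reads at equal relative spread. The biological coefficient of variation estimated for Egr1 was 9.59%, where the trend at its level was 5.45%, and for Fos it was 11.9% against 6.95%.

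Whether the 9 genes rose and fell together from library to library was described by correlating deviations of log2(CPM + 0.5) from the group mean over the 11 libraries. Of 36 pairs, 21 had r above 0, and the median r was 0.08. The values ran from -0.71 for Junb with Ier3 to 0.73 for Fosl1 with Atf3, and Egr1 with Klf6 (0.69), Fos with Klf6 (0.58) and Fos with Atf3 (0.53) were the only others above 0.5. Fos, Fosl1 and Atf3 have few reads, and all genes of a library share its depth and total, so these values are a description of 11 points. Against the mean profile of the 9 genes, r was 0.84 for Atf3, 0.74 for Fos, 0.71 for Fosl1, 0.70 for Klf6 and 0.61 for Egr1, but -0.26 for Ier2, -0.14 for Ier3, 0.03 for Junb and 0.12 for Jun. The first 5 are part of that mean and lead it. Outside the 9 genes, the profiles most like it among 11079 genes were Rnf128 (r = 0.94), Slc29a3 (0.93), Smad7 (0.93), Krt8 (0.93) and Cyth2 (0.92). They are the highest of 11079 values over 11 libraries, and whether chance alone gives values as high was not tested.

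**Figure D4:**
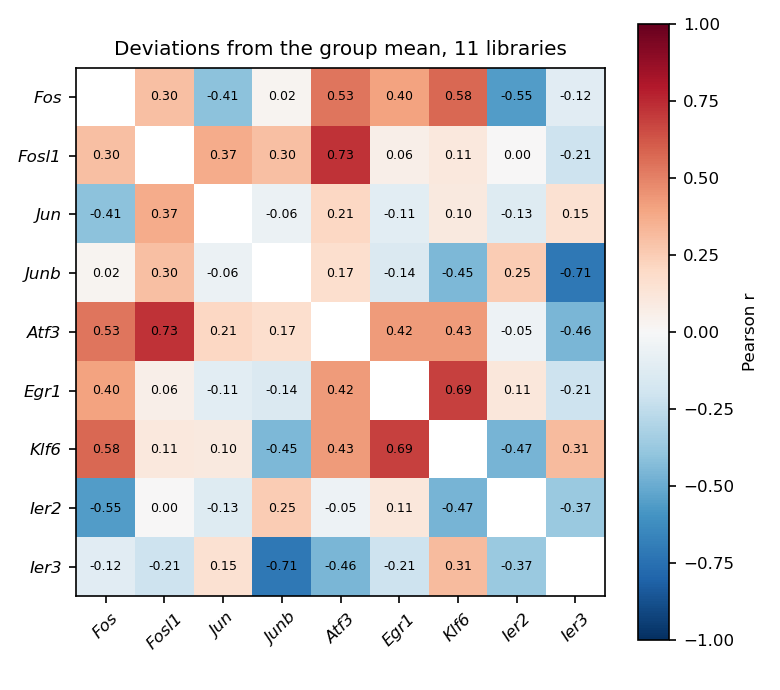
Pearson r between each pair of the 9 genes, from deviations of log2(CPM + 0.5) from the group mean in 11 libraries (colour and number, blue below 0 and red above). The pairs spread on both sides of 0 around a median of 0.08, from -0.71 (Junb with Ier3) to 0.73 (Fosl1 with Atf3).

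Genes for proteins that pair with FOS and JUN were called in both directions. Of 9 genes tested in a list of AP-1 partners and relatives, 1 fell and 1 rose with siRNA 1, and 2 fell and 1 rose with siRNA 2. Over all genes tested, 4.67% were called with siRNA 1 and 9.72% with siRNA 2, and 16.8% and 23.2% had an unadjusted p under 0.05 (edgeR). These shares belong beside the counts of this list and of every list below. Mafg, a small MAF protein, fell from 153 ± 1.65 CPM (SD, n = 3) in control to 133 ± 1.29 (n = 4) and 135 ± 4.06 (n = 4), by 0.20 and 0.18 on the log2 scale (adjusted p = 0.00665 and 0.0103, edgeR). Atf2, a partner of JUN, rose from 129 ± 8.03 to 150 ± 3.41 and 148 ± 5.35 CPM, by 0.21 and 0.20 (adjusted p = 0.00786 and 0.00792, edgeR). Jdp2, a repressor that dimerises with JUN, fell by 0.95 on the log2 scale with siRNA 2 (adjusted p = 0.0197), from 2.82 to 1.46 CPM, but not with DESeq2 or without control replicate 2, control replicate 3 or siRNA 2 replicate 4 (adjusted p up to 0.110). Leaving out control replicate 2 or 3 also ended the calls of Atf2 (adjusted p up to 0.105 and 0.0829), and leaving out control replicate 3 that of Mafg with siRNA 2 (0.0547).

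Of 33 other immediate early genes tested, 1 fell and 2 rose with siRNA 1, and 2 fell and 3 rose with siRNA 2, and the median log2 fold changes were -0.05 and -0.02. Sgk1, a kinase induced by serum and glucocorticoids, fell from 176 ± 1.59 CPM to 144 ± 9.28 and 149 ± 8.24, by 0.29 and 0.24 on the log2 scale (adjusted p = 0.000312 and 0.00164, edgeR). Plk2, a serum-inducible polo-like kinase, rose by 0.33 and 0.25 (adjusted p = 0.00135 and 0.0115), and Rnd3 by 0.29 and 0.27 (adjusted p = 0.00750 and 0.00739). Gadd45a, a growth arrest and DNA damage gene, fell by 0.26 with siRNA 2 (adjusted p = 0.00682). Ccn1, a secreted matricellular protein named here as the remaining call with siRNA 2, rose by 0.27 (adjusted p = 0.0102). DESeq2 did not call Rnd3 (either siRNA), Ccn1 or, with siRNA 2, Plk2. Calls were also lost without control replicate 3 for Rnd3 (adjusted p up to 0.0898) and for Plk2 with siRNA 2, without siRNA 2 replicate 1 for the same Plk2 result (up to 0.166), and without control replicate 2 for Gadd45a (0.0584). The call of Sgk1 held in every setting run.

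The next list holds the relatives of Egr1 and the NAB genes, which encode co-repressors that bind EGR proteins. Of these, Nab2 is known to be induced by EGR1. Of 4 genes tested in the list of EGR relatives and NAB co-repressors, 0 were called with siRNA 1 by edgeR, DESeq2 or the exactTest. At an unadjusted p under 0.05 (edgeR) there was 1 with siRNA 1 (16.8% of all genes). By edgeR, 3 rose with siRNA 2. Egr2 and Egr3 stayed under 1 CPM in every library. Nab2 (ENSMUSG00000025402; chromosome 10, 127660918 to 127668568, minus strand) was at 9.40, 9.74 and 9.69 CPM in control, at 10.8, 10.1, 9.25 and 11 with siRNA 1, and at 15.5, 14, 18.9 and 14.8 with siRNA 2. The siRNA 2 libraries were all above every other library, while siRNA 1 overlapped with control. Nab2 rose by 0.71 on the log2 scale with siRNA 2 (SE 0.12, 0.46 to 0.96, adjusted p = 9.92e-05, edgeR), its log2 fold change with siRNA 1 was 0.10 (SE 0.13, adjusted p = 0.790), and the difference between the siRNAs was itself 0.61 (SE 0.11, adjusted p = 0.000286). Both calls of Nab2 held in every setting run, with adjusted p up to 0.00131 and 0.00275. The gene span overlaps those of Stat6, Nemp1 and Gm16229 on the other strand. Stat6 had log2 fold changes of 0.07 with siRNA 2 and 0.16 between the siRNAs, and Nemp1 of -0.05 and -0.03, none of them called, and Gm16229 was not among the genes tested.

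Nab1 (ENSMUSG00000002881; chromosome 1, 52457294 to 52500679, minus strand) was at 9.78, 11.6 and 10.4 CPM in control, at 13.5, 13.1, 14.7 and 12.0 with siRNA 1, and at 14.8, 15.2, 15 and 13.7 with siRNA 2. All 8 siRNA libraries exceeded all 3 control libraries. Nab1 rose by 0.47 on the log2 scale with siRNA 2 (SE 0.12, adjusted p = 0.00719, edgeR; 0.0524 with DESeq2), its log2 fold change with siRNA 1 was 0.33 (adjusted p = 0.113), and the difference between the siRNAs was 0.14 (adjusted p = 0.499). Wt1, a zinc finger factor with EGR-like DNA binding, rose by 0.22 with siRNA 2 (adjusted p = 0.0204), but not with DESeq2 or without control replicate 2 or 3 or siRNA 2 replicate 1 or 2 (adjusted p up to 0.110). Markers of fibroblasts, 8 of them tested, differed in the same comparison. Col1a1 and Dcn rose with siRNA 2 (log2 fold changes 0.75 and 1.13, adjusted p = 6.42e-05 and 0.00209, edgeR) and Col3a1 fell by 1.42 (adjusted p = 0.0180). With siRNA 1, 0 were called by edgeR, DESeq2 or the exactTest, and 1 had an unadjusted p under 0.05 (16.8% of all genes). The summed level of the 10 fibroblast markers was 51.2 to 60.7 CPM in control, 51.9 to 64.3 with siRNA 1 and 61.3 to 69.8 with siRNA 2, and its part in the rise of the NAB genes was not tested. The call of Col3a1 was lost with DESeq2 and without control replicate 1, siRNA 2 replicate 2 or siRNA 2 replicate 4 (adjusted p up to 0.139).

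**Figure D5:**
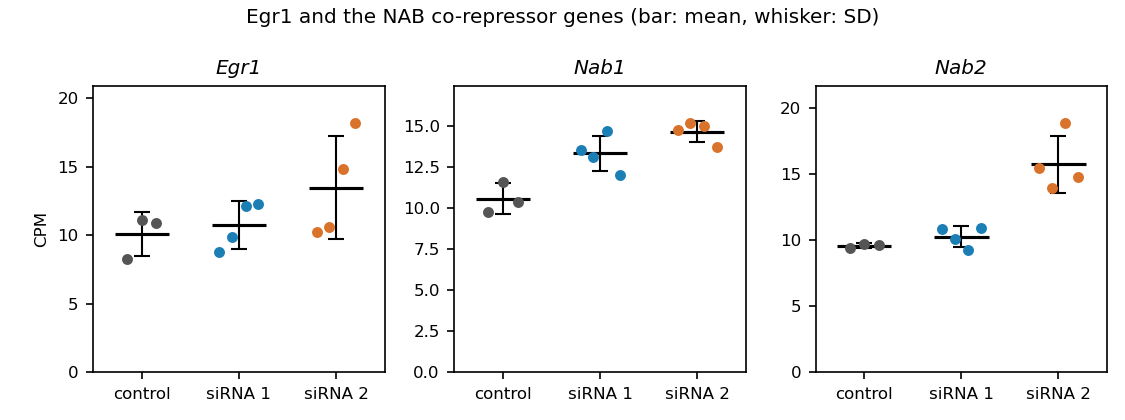
CPM (y axis, from 0) of Egr1, Nab1 and Nab2 in each library of the control siRNA (n = 3), CMTR1 siRNA 1 (n = 4) and CMTR1 siRNA 2 (n = 4), with the mean as a bar and the SD as a whisker. Nab2 lies between 14 and 18.9 CPM in siRNA 2 and at 11 CPM or below elsewhere, Nab1 is above control in every siRNA library, and Egr1 overlaps between groups.

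Upstream of the immediate early genes, most measured components did not pass the test. In the MAP kinase chain, 1 of 24 genes rose with siRNA 1, and 1 fell and 1 rose with siRNA 2. These counts are near the shares over all genes tested, 4.67% with siRNA 1 and 9.72% with siRNA 2. Mapk3, which encodes the kinase ERK1, was at 64.2, 56.5 and 59.0 CPM in control, at 76.6, 77.9, 78.6 and 78.7 with siRNA 1, and at 72.9, 82.7, 74.1 and 66.6 with siRNA 2. All 8 siRNA libraries exceeded all 3 control libraries. It rose by 0.38 and 0.31 on the log2 scale (SE 0.07 in both, adjusted p = 0.000146 and 0.00137, edgeR), and both calls held in every setting run. Rps6ka2, a ribosomal S6 kinase below ERK, fell by 0.22 with siRNA 2 (adjusted p = 0.0382). In the serum response factor module, 1 of 17 genes rose with each siRNA, the actin filament gene Tpm1 with siRNA 1 (0.21, adjusted p = 0.00632) and the CREB relative Atf1 with siRNA 2 (0.20, adjusted p = 0.0267). Both also differed between the siRNAs, Tpm1 by -0.15 and Atf1 by 0.19 (siRNA 2 minus siRNA 1, adjusted p = 0.0362 and 0.0216). Several of these calls were less stable. Rps6ka2 and Atf1 against control were lost with DESeq2, with TMM factors (Atf1) or with other filters (Rps6ka2), and without control replicate 3 or siRNA 2 replicate 1 or 2, Rps6ka2 also without control replicate 2 and Atf1 also without control replicate 1 (adjusted p up to 0.195 and 0.147). Between the siRNAs, Atf1 was lost with DESeq2 and Tpm1 with no filter, and without siRNA 1 replicate 2 or 4 or siRNA 2 replicate 1 or 2 both were lost, as was Atf1 without siRNA 1 replicate 1 and Tpm1 without siRNA 1 replicate 3 or siRNA 2 replicate 3 (adjusted p up to 0.106 and 0.152).

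Of 14 genes that feed back on ERK or respond to it, 0 were called with siRNA 1 by edgeR, DESeq2 or the exactTest. At an unadjusted p under 0.05 (edgeR) there were 5 with siRNA 1 (16.8% of all genes). By edgeR, 1 fell and 1 rose with siRNA 2. Spry1, an inhibitor of growth factor signalling to ERK, was at 19.0, 17.1 and 15.9 CPM in control, at 14.8, 17.4, 16.2 and 20.4 with siRNA 1, and at 12.8, 11.6, 13.5 and 14.1 with siRNA 2. The siRNA 2 libraries were below all others. Spry1 fell by 0.42 on the log2 scale with siRNA 2 (SE 0.11, adjusted p = 0.0133) and differed by -0.42 between the siRNAs (adjusted p = 0.0114), and these calls were lost without control replicate 1 (against control), siRNA 1 replicate 4 (between the siRNAs) or siRNA 2 replicate 2 (adjusted p up to 0.0935 and 0.0835). Etv1, an ETS factor, rose by 0.20 with siRNA 2 (adjusted p = 0.0364), a call lost in 4 of the 7 other settings and in 5 of the 7 settings without 1 library, all but those without siRNA 2 replicate 2 or 3 (adjusted p up to 0.185). Among the AU-rich element decay genes, whose proteins control short-lived mRNAs such as Fos, 1 of 15 rose with siRNA 1, Zfp36l1 (0.23, adjusted p = 0.0240), and 2 rose with siRNA 2, the deadenylase gene Cnot6l (0.28, adjusted p = 0.0174) and Elavl1 (0.16, adjusted p = 0.0228), which encodes the stabilising protein HuR. DESeq2 called none of these 3, TMM factors lost the call of Elavl1, and each call was lost in 3 or 4 of the 7 settings without 1 library (adjusted p up to 0.185, 0.109 and 0.105): control replicate 3 for all 3, control replicate 1 for Zfp36l1 and Cnot6l, control replicate 2 for Elavl1, siRNA 1 replicates 1 and 2 for Zfp36l1, siRNA 2 replicate 4 for Cnot6l and siRNA 2 replicate 1 for Elavl1.

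Genes of the KLF family, to which Klf6 belongs, were called mostly lower. Of 12 tested, 4 fell with siRNA 1 (Klf2, Klf4, Klf5 and Klf9), and 5 fell (Klf2, Klf3, Klf4, Klf12 and Klf15) and 1 rose (Klf11) with siRNA 2. Klf4, a pluripotency factor, was at 56.2, 62.8 and 58.7 CPM in control, at 42.7, 39.4, 52.6 and 44.6 with siRNA 1, and at 35.8, 39.0, 40.2 and 40.0 with siRNA 2, and it fell by 0.40 and 0.61 on the log2 scale (SE 0.07 in both, adjusted p = 0.000356 and 1.47e-07, edgeR). Klf2, also part of the pluripotency network, fell by 0.58 and 0.38 (adjusted p = 1e-06 and 0.000294), and Klf5 by 0.21 with siRNA 1 (adjusted p = 0.00479). These calls of Klf2, Klf4 and Klf5 held in every setting run. Klf11 rose by 0.27 with siRNA 2 (adjusted p = 0.0103), but not with DESeq2 or without control replicate 3 (adjusted p up to 0.111). The calls of Klf9, Klf3, Klf12 and Klf15, named here only to complete the count, were each lost in 5 or more of the settings run (adjusted p up to 0.131, 0.245, 0.188 and 0.291), among them the settings without control replicate 3. The ESC markers moved along with them, 6 of 10 falling with siRNA 1 and 4 with siRNA 2, and their part in the KLF result was not tested. Nanog fell by 0.57 and 0.54 on the log2 scale, Esrrb by 0.34 and 0.55, Zfp42 by 0.32 and 0.31, and Tfcp2l1 by 0.38 and 0.60. Pou5f1 and Dppa5a, the remaining calls with siRNA 1, fell by 0.16 and 0.25. The Pou5f1 call was lost with the replicate block and in 6 of the 7 settings without 1 library. Over the other settings that kept all libraries, 4 to 7 of these markers were called with siRNA 1. With siRNA 1, DESeq2 lost the calls of Zfp42 and Tfcp2l1, the latter also without control replicate 2 or 3 or siRNA 1 replicate 1 or 2 (adjusted p up to 0.0621 and 0.315).

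Stress programmes that can accompany immediate early genes were also examined. Of 11 inducible heat shock genes, 0 were called by edgeR or the exactTest with either siRNA. At an unadjusted p under 0.05 (edgeR) there were 5 with siRNA 1 and 2 with siRNA 2 (16.8% and 23.2% of all genes). DESeq2 called 0 with siRNA 1 and 1 with siRNA 2, as did edgeR with TMM factors. Of 12 genes of the ATF4 and unfolded protein response, which Atf3 belongs to as a target, 5 fell with siRNA 1, and 1 fell and 1 rose with siRNA 2. Atf4, the factor that drives amino acid stress genes, fell from 176 ± 3.14 to 146 ± 8.52 CPM with siRNA 1, by 0.27 on the log2 scale (adjusted p = 0.000431, edgeR). Trib3, a pseudokinase and ATF4 target, fell by 0.61 and 0.52 with the siRNAs (adjusted p = 0.000408 and 0.00133), and Chac1, which degrades glutathione, by 0.76 with siRNA 1 (adjusted p = 0.00140). Herpud1, a gene of endoplasmic reticulum protein degradation, fell by 0.45 with siRNA 1 (adjusted p = 0.0123), a call lost without control replicate 2 or siRNA 1 replicate 2 (adjusted p up to 0.193). The calls of Atf4, Trib3 and Chac1 held in every setting run. Asns and Hspa5 are named here only to complete the count. Asns fell by 0.20 with siRNA 1, a call lost in 4 of the 7 settings without 1 library. Hspa5 rose by 0.17 with siRNA 2 and was higher by 0.15 with siRNA 2 than with siRNA 1. Both calls of Hspa5 were lost with DESeq2, and in 3 of 7 and 4 of 8 settings without 1 library. That against control was also lost with TMM factors and the replicate block. Markers of primitive endoderm and trophectoderm, 5 of each tested, gave 0 calls by edgeR, DESeq2 or the exactTest with either siRNA. At an unadjusted p under 0.05 (edgeR) there were 0 of primitive endoderm with either siRNA. For trophectoderm there were 2 with each siRNA (16.8% and 23.2% of all genes).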

How the data were processed

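The data were counts: for each of 11 libraries, the authors deposited whole numbers of reads per Ensembl gene. According to the labels and methods, ribosomal RNA was depleted from total RNA, libraries were made with a directional kit, and featureCounts was run on paired reads that Cutadapt had trimmed, STAR had aligned (GRCm38) and Picard had freed of PCR duplicates. The versions are not given in the sources used here, and the summary lines of the tables have another counter's layout and were set aside. Removal of duplicates can lower the counts of highly expressed genes, and counting over exons of overlapping genes can mix their reads.

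Symbols, coordinates and exon lengths came from GENCODE M21 (GRCm38), which held 54723 of 54838 identifiers. Genes with more than 1 CPM in at least 4 libraries were fitted with edgeR 4.0.16 (R 4.3.3) in 1 quasi-likelihood model of the 3 groups, with total gene counts as library size, as the study states, and Benjamini-Hochberg adjusted p over all 16073 genes. The study's exactTest was an alternative. Alternatives were TMM factors (0.986 to 1.012), DESeq2 1.42.0, exactTest, no filter, more than 0.2 CPM in at least 3 libraries, a fit of 2 groups, the replicate number as a block, and each library left out. The code was tested on counts simulated for siRNA 1 against control with 200 changed genes, where 181 were called, 14 of them unchanged. Of 100 genes changed 2-fold 93 were called, and of 100 changed by 0.5 on the log2 scale 74 were. The changed genes were drawn from those with a mean above 2 CPM. Fos (2.03), Fosl1 (2.01) and Atf3 (2.35) lie near that floor, so these shares may not hold for them. Intervals are at 95%, and permutation tests were exact and two-sided. No 2 libraries of the same group agreed within sampling noise.

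The members, the related gene lists and the tests were chosen with earlier results of these data known, and the alternatives for the related lists were added after the data were seen. From each list up to 4 genes called in either comparison with control were named, in order of adjusted p, and the 5 genes most like the members by r. Figures used Python 3.11.15 and matplotlib 3.10.9.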

Additional observations from a re-analysis of the deposited data

Results flagged for a closer look

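Over the 9 members and the 34 other genes named by rule, the groups of 4 libraries were searched for a library far from the other 3 (Dixon's test), in 86 groups, of which chance flags about 1 in 20. No member was picked out. Of the related genes, Atf2 was at 140.3 CPM in siRNA 2 replicate 2, where the other 3 lay at 150.9 to 151.3. Plk2 was at 88.4 CPM in siRNA 1 replicate 1, where the others lay at 75.5 to 77.3. Klf5 was at 150.1 CPM in siRNA 1 replicate 4, where the others lay at 141.3 to 142. Klf11 was at 41.7 CPM in siRNA 1 replicate 3, where the others lay at 38.7 to 39.2. Cnot6l was at 45.1 CPM in siRNA 2 replicate 4, where the others lay at 37.1 to 38.4.

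The siRNAs differed from each other in 9 of the 34 related genes named by rule (siRNA 2 minus siRNA 1, log2 scale, edgeR adjusted p of 0.05 or less) and in none of the members. Over all genes of the lists 15 were called, where 7.44% of all genes tested were. The 34 genes were named because they were called against control with the same siRNA libraries. Their count therefore cannot be set against the share over all genes or against the members. The differences of the 9 were 0.61 for Nab2, 0.76 for Col1a1, 0.99 for Dcn, 0.26 for Cnot6l and 0.19 for Atf1, and -0.42 for Spry1, -0.31 for Zfp36l1, -0.21 for Esrrb and -0.15 for Tpm1. With DESeq2 the differences of Atf1, Cnot6l and Esrrb were not called. That of Cnot6l was also lost without siRNA 1 replicate 1 or 2 or siRNA 2 replicate 4 (adjusted p up to 0.153), and that of Esrrb without siRNA 1 replicate 2, 3 or 4 or siRNA 2 replicate 1 or 2 (up to 0.123).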

How the results depend on the processing

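The count of members called stayed at 0 with siRNA 1 and between the siRNAs in every setting run. With siRNA 2 it was 1 with no filter on low counts and 0 to 1 with a library left out, the gene being Egr1 each time. DESeq2 called fewer of all genes, 450, 874 and 674 for siRNA 1, siRNA 2 and their difference, against 751, 1562 and 1196, and leaving out 1 library gave 355 to 850, 807 to 1667 and 724 to 1374. The split of all calls depended on scaling: 316 lower and 435 higher with siRNA 1 became 400 and 346 with TMM factors and 280 and 170 with DESeq2, and 571 and 991 with siRNA 2 became 734 and 728, and 484 and 390. No scaling turned the direction of a member.

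Same-numbered libraries did not deviate together (mean r 0.0102 over 10 pairs, highest 0.0696), so no pairing by number was seen. These correlations cannot exclude that equal numbers mark a shared culture or day. With the replicate block 840, 1486 and 1242 genes and 0, 0 and 0 members were called, the medians of the members were -0.04, 0.08 and 0.10, and Egr1 turned to -0.0396 with siRNA 1 and went from 0.42 to 0.28 with siRNA 2. Among the related genes named by rule, the block also ended the calls of Cnot6l, Elavl1 and Etv1 with siRNA 2.

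With a library left out, the members' median log2 fold change ran from -0.129 to 0.0054 (siRNA 1), from -0.071 to 0.185 (siRNA 2) and from 0.074 to 0.204 (between them). These members changed sign. With siRNA 1, Egr1 ran from -0.028 to 0.178, Ier2 from -0.081 to 0.034, Fos from -0.274 to 0.310 and Junb from -0.143 to 0.0054. With siRNA 2, Junb ran from -0.052 to 0.096, Atf3 from -0.086 to 0.207, Fos from -0.120 to 0.465 and Jun from -0.131 to 0.023. Between the siRNAs, Fos ran from -0.058 to 0.347, Ier3 from -0.049 to 0.204 and Fosl1 from -0.036 to 0.258. Reads per library, 6 to 26 for Fos, Fosl1 and Atf3, limit what could be seen in these genes. Of the related calls, 18 of 23 (siRNA 1), 16 of 33 (siRNA 2) and 9 of 15 (between them) held in every setting that kept all libraries, 14, 12 and 5 held also with each library left out, and none reversed.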
